A study of Coprinopsis cinerea AmutBmut pab1-1 with 7 samples.

Results

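Oligopeptide transporters carry short peptides across fungal membranes, and 4 genes of Coprinopsis cinerea that the study listed in its table of transporters as members of this superfamily are described here: proteins 496395, 225784, 360169 and 361816, out of 14242 gene models counted. All 4 were found in the count table by their protein IDs, and all 4 were detected in every library, with 116 to 2755 counts per library. C. cinerea is a litter-decomposing mushroom that is used as a laboratory model. Cre1 is the zinc finger repressor that, in filamentous fungi, holds down genes for the use of poorer carbon sources while glucose is at hand. Vegetative mycelium of the control strain, AmutBmut pab1-1 (3 libraries, called the wild type), was compared with that of the cre1-43 deletion mutant (2 libraries, Δcre1-43) and of the cre1-91 deletion mutant (2 libraries, Δcre1-91), each in the same background and each a single transformant selected with a working pab1 marker, which the wild type lacks. Culture conditions were the same for the 3 strains: YMG plates holding 0.2% glucose, a growth period of 84 h without light, and 28°C. By PCR screens and sequencing, the study found the pab1 marker integrated at the cre1 locus, and it regards both strains as deletion mutants. It also noted that a small cre1 fragment could still be amplified from their genomic DNA at a high number of PCR cycles. How the replicate cultures relate to each other is not given in the sources used here.

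Fungi take up peptides through separate families of membrane proteins. The oligopeptide transporter (OPT) superfamily includes a clade named after OPT1 of Saccharomyces cerevisiae and isp4 of Schizosaccharomyces pombe, which carries tetrapeptides, pentapeptides and related compounds such as glutathione. It also includes a clade named after the YSL proteins of plants, which carry metals chelated by nicotianamine. The PTR2 family, which is unrelated in sequence, takes up dipeptides and tripeptides together with protons. Peptides reach such carriers after secreted peptidases have cut proteins outside the cell.

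Quant-Seq sequences tags from the 3′ end of polyadenylated RNA. The 7 libraries held 6232853 to 10784958 assigned counts, and each mutant library held fewer than any wild-type library, so depth and genotype cannot be told apart from the libraries alone. Levels are given as CPM, counts relative to the library size, scaled by the trimmed mean of M values (scaled CPM), in which 3 counts amount to 0.277 to 0.451 depending on the library. The label of vegetative mycelium was not checked against marker genes. The gene cre1 itself (protein 466792) was measured first. It stood at 8.68, 7.89 and 11.3 scaled CPM in the wild-type libraries, at 8.71 and 8.16 in the libraries labelled Δcre1-43, and at 8.5 and 6.27 in those labelled Δcre1-91. The log2 fold change was -0.14 in Δcre1-43 and -0.33 in Δcre1-91 (edgeR quasi-likelihood test, adjusted P = 0.851 and 0.495). The 95% intervals, -0.71 to 0.42 and -0.90 to 0.24, include 0 and leave out a fall of 1 on the log2 scale. The tags counted for cre1 thus did not bear out the labels. The study based these on PCR screens and sequencing of the locus, and also cited its Quant-Seq results for them. These tags were counted over the coding exons and 400 bases added at the 3′ end. Where in this window they fell was not tested. Each direction below is that of the libraries labelled as mutants.

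The 4 genes lay on 4 different scaffolds of the AmutBmut pab1-1 assembly (v1.0). All were on the plus strand, and each model consisted of coding exons with an overhang of 400 bases added at the 3′ end for counting tags. Protein 496395, annotated as an OPT superfamily and OPT1/isp4-type tetrapeptide transporter, spanned positions 10784 to 14614 of scaffold 39 with 20 coding exons and 2319 coding bases. Protein 225784, annotated only with the OPT superfamily, spanned 77035 to 80783 of scaffold 54 with 20 coding exons and 2313 coding bases. Protein 360169, of the OPT1/isp4 type, spanned 86001 to 89305 of scaffold 17 with 9 coding exons and 2472 coding bases. Protein 361816, annotated as an OPT superfamily protein like the metal-nicotianamine transporter YSL, spanned 135251 to 138482 of scaffold 24 with 12 coding exons and 2181 coding bases. Although the first pair of genes had equal exon numbers and coding lengths within 6 bases, none of their coding exons had a length in common.

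All 4 genes were lower in every Δcre1 library than in any wild-type library. Such a gap was present for 13.7% of all gene models. In Δcre1-43, 3 of the 4 genes passed the limits for a call (a log2 fold change beyond 1 in either direction with adjusted P ≤ 0.05), where 2.16% of all models were called lower. In Δcre1-91, all 4 passed, where 3.35% of all models were called lower. The 3 genes called in both mutants were 496395, 225784 and 360169, and 1.52% of all models were called lower in both. The median log2 fold change of the 4 genes was -1.09 in Δcre1-43 and -1.14 in Δcre1-91, against 0 over all models. The study listed these genes because they differed from the wild type in the same libraries, so their direction, counts and P values against the wild type describe the genes and are not independent evidence. The mutants also share the wild-type libraries. In RNA from whole mycelium, fewer cells that express a gene and less of its RNA per cell cannot be told apart.

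**Figure D1:**
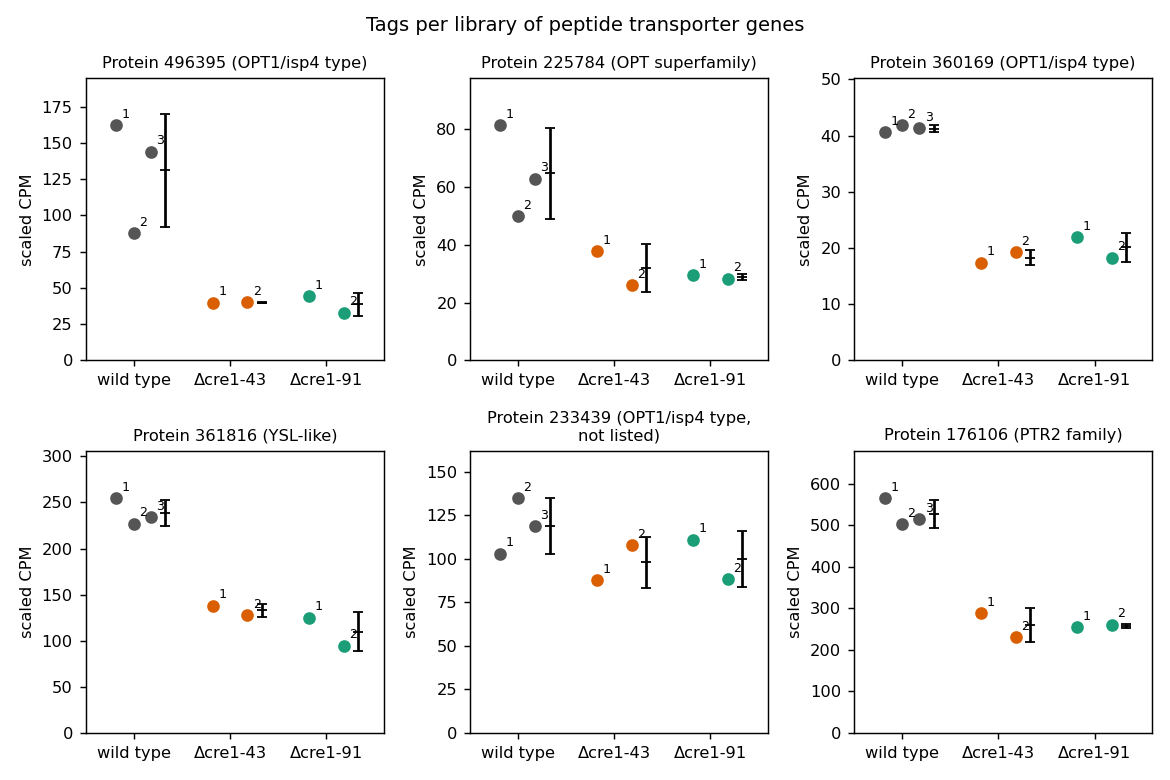
Scaled CPM (linear axis from 0) of the 4 listed oligopeptide transporter genes, of the OPT1/isp4-type gene 233439 and of the PTR2 family gene 176106 in wild type, Δcre1-43 and Δcre1-91. Points are libraries with their replicate number, and the bar beside each group is the mean ± SD (n = 3, 2 and 2). The 4 listed genes and 176106 were lower in all 4 mutant libraries than in any wild-type library, while the groups of 233439 overlapped.

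Protein 496395, the tetrapeptide-type transporter with 20 exons, fell furthest of the 4 in both mutants. Its level was 162, 87.6 and 144 scaled CPM in the wild-type libraries, 39.8 and 40.1 in Δcre1-43, and 44.3 and 33 in Δcre1-91. The lowest wild-type library, replicate 2, was still 1.98 times the highest mutant library. The means were 131 ± 38.7 (SD, n = 3) in wild type, 39.9 ± 0.203 (SD, n = 2) in Δcre1-43 and 38.6 ± 7.96 (SD, n = 2) in Δcre1-91. These levels gave a log2 fold change of -1.71 (SE 0.232, edgeR adjusted P = 3.76e-05) in Δcre1-43 and of -1.76 (SE 0.233, edgeR adjusted P = 2.17e-05) in Δcre1-91. The mutant libraries stood at 25.2% to 33.8% of the wild-type mean.

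Protein 225784, the OPT superfamily gene of the same exon number, was the least steady of the 4 calls. Its level was 81.3, 49.8 and 62.9 scaled CPM in wild type, 37.7 and 26 in Δcre1-43, and 29.6 and 28.3 in Δcre1-91. The highest mutant library (Δcre1-43 replicate 1) and the lowest wild-type library (replicate 2) were separated by a factor of 1.32, the narrowest gap among the 4 genes. The log2 fold change was -1.03 (SE 0.217, edgeR adjusted P = 0.00283) in Δcre1-43 and -1.16 (SE 0.218, edgeR adjusted P = 0.000826) in Δcre1-91. The call in Δcre1-43 was lost without wild-type replicate 1 (-0.83) or without Δcre1-43 replicate 2 (-0.79), and was lost with limma voom (adjusted P = 0.052, where the 19 alternatives ranged from 0.000386 to 0.0945) and with scaling by the upper quartile (-1.0) or by library size alone (-0.99). The call in Δcre1-91 was lost without wild-type replicate 1 (-0.96).

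Protein 360169, an OPT1/isp4-type gene, had nearly the same level in each wild-type library. It stood at 40.6, 41.8 and 41.3 scaled CPM in wild type, at 17.4 and 19.3 in Δcre1-43, and at 21.9 and 18.3 in Δcre1-91. The wild-type coefficient of variation was 1.49%, less than the 4.78% that counting alone gives at this mean count. The log2 fold change was -1.16 (SE 0.189, edgeR adjusted P = 0.000254) in Δcre1-43 and -1.03 (SE 0.187, edgeR adjusted P = 0.000585) in Δcre1-91. The call in Δcre1-43 was kept whichever library was left out. In Δcre1-91 it was lost without Δcre1-91 replicate 2 (-0.91) and, at a value of -1.0, with upper-quartile scaling.

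Protein 361816, the YSL-like gene, differed from the others in that its change in Δcre1-43 was below the fold limit. Its level was 255, 227 and 234 scaled CPM in wild type, 138 and 128 in Δcre1-43, and 125 and 94.8 in Δcre1-91. The groups were far apart, with the lowest wild-type library at 1.65 times the highest mutant library. The log2 fold change was -0.84 (SE 0.170, edgeR adjusted P = 0.0019) in Δcre1-43, which passed on P and not on size, and -1.12 (SE 0.172, edgeR adjusted P = 0.000123) in Δcre1-91. Without Δcre1-91 replicate 2, the lowest library, the change in Δcre1-91 was -0.93 and no longer a call. With all libraries, -0.84 in Δcre1-43 was the only value of the 4 genes short of the fold limit, and those just past it were -1.03 for 225784 in Δcre1-43 and -1.03 for 360169 in Δcre1-91.

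**Figure D2:**
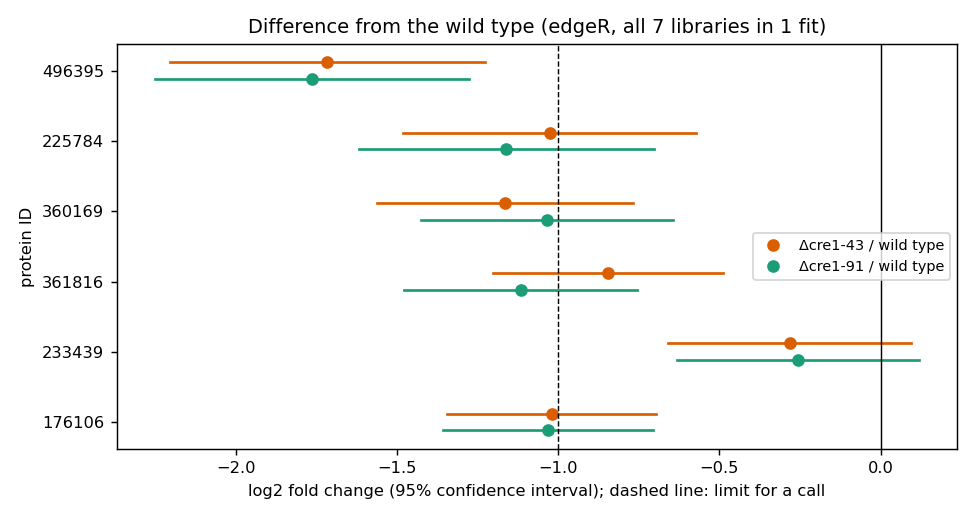
Log2 fold change against the wild type with its 95% confidence interval (edgeR, all 7 libraries in 1 fit) for the 4 listed genes, 233439 and 176106. Δcre1-43 is in orange and Δcre1-91 in green, the solid line marks no change and the dashed line the fold limit of a call. The intervals of the 4 listed genes and of 176106 lie below 0 in both mutants, and those of 233439 include 0.

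The direct comparison of the mutants sets no wild-type level against them and was not itself used to list the genes. Its spread and scaling came from all 7 libraries. The listing used the same mutant libraries, so the comparison is not free of that choice. None of the 4 genes passed the test between Δcre1-43 and Δcre1-91, where 0.246% of all models passed in either direction. The log2 difference, Δcre1-43 minus Δcre1-91, was 0.05 for 496395 (95% interval -0.47 to 0.56, edgeR adjusted P = 1) and 0.14 for 225784 (-0.36 to 0.63, adjusted P = 0.944). It was -0.13 for 360169 (-0.56 to 0.30, adjusted P = 0.922) and 0.27 for 361816 (-0.11 to 0.65, adjusted P = 0.649). In order of mean level, wild type came first for each gene, followed by Δcre1-43 and Δcre1-91 for 496395, 225784 and 361816, and by Δcre1-91 and Δcre1-43 for 360169. The order of the mutants was not beyond their spread for any of the 4, although the 2 Δcre1-43 libraries of 361816 were both above the 2 Δcre1-91 libraries. With 2 libraries each, the intervals still allow a difference between the mutants of up to 1.57-fold for 361816, so equal levels were not shown. In this edgeR fit 0 of the 4 genes reached an unadjusted P of 0.05 either, where 1594 of 14242 models did. Likewise 0 of the 4 were called by limma voom or DESeq2, which called 0 and 72 of all models. These counts are near the shares over all models and show nothing particular to the 4 genes.

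Within each library, the make-up of the 4 genes' counts does not depend on scaling. Protein 496395 held 30.1%, 21.6% and 29.8% of them in the wild-type libraries, 17.1% and 18.8% in Δcre1-43, and 20% and 18.9% in Δcre1-91. Its share was thus lower in every mutant library than in any wild-type library, but narrowly (20% in Δcre1-91 replicate 1, 21.6% in wild-type replicate 2). This restates that 496395 fell furthest of the 4 genes, all listed as lower. The shares of the other genes overlapped between wild type and mutants: 12.2% to 15.1% in wild type and 12.2% to 16.2% in the mutants for 225784, 7.53% to 10.3% and 7.49% to 10.5% for 360169, and 47.3% to 55.9% and 54.4% to 60% for 361816. Summed over the 4 genes, the level was 476 ± 66.3 scaled CPM (SD, n = 3) in wild type, 223 ± 13.7 (SD, n = 2) in Δcre1-43 and 198 ± 33 (SD, n = 2) in Δcre1-91.

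The genes also differed in how far replicates of 1 group spread. Their biological coefficients of variation, estimated by edgeR within the groups, were 0.193 for 496395, 0.178 for 225784, 0.136 for 360169 and 0.151 for 361816. Among genes of like mean level, 90.6% of 1115 had a smaller value than 496395 and 88.4% of 1520 a smaller value than 225784. For 361816 the share was 47.2% of 553 genes, and for 360169 only 7.32% of 1803. In wild type, replicate 1 was the highest and replicate 2 the lowest library for 496395, 225784 and 361816, and the 3 libraries of 360169 lay within 1.2 scaled CPM of each other.

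**Figure D3:**
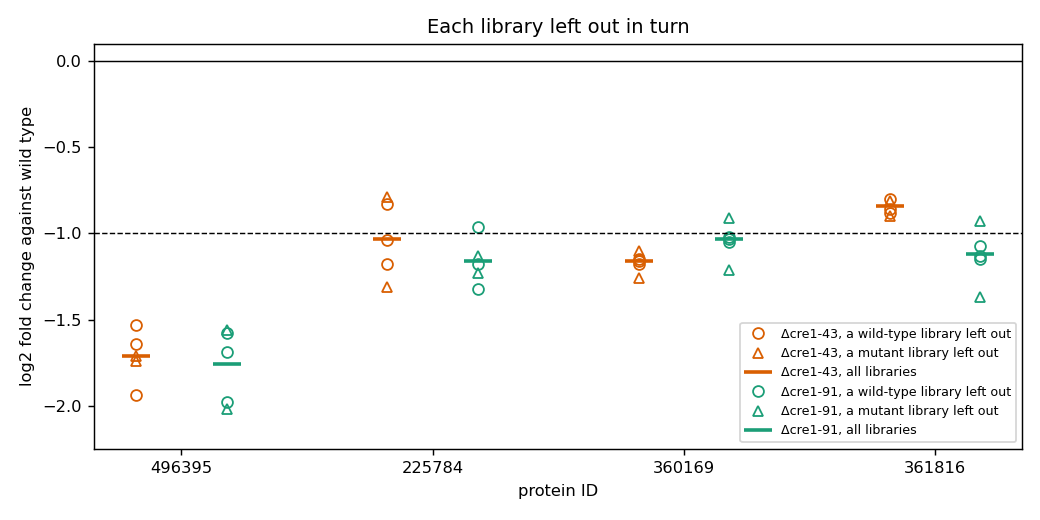
Log2 fold change of the 4 listed genes against the wild type with each library left out in turn (edgeR). Orange stands for Δcre1-43 and green for Δcre1-91, bars are the values from all libraries, circles leave out a wild-type library and triangles a mutant library, and the dashed line is the fold limit of a call. Every value lies below 0, those of 496395 range from -2.02 to -1.53, and the points above the dashed line are those of 361816 in Δcre1-43, 225784 without wild-type replicate 1 or Δcre1-43 replicate 2, and 360169 and 361816 without Δcre1-91 replicate 2.

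The annotations used here named 2 more OPT superfamily genes, which the study did not list. These annotations are not complete, so further family members may exist. Protein 233439, of the OPT1/isp4 type, lay on scaffold 59 (81836 to 85105, plus strand) with 8 coding exons and 2487 coding bases. Its level was 103, 135 and 119 scaled CPM in wild type, 87.7 and 108 in Δcre1-43, and 111 and 88.3 in Δcre1-91. The groups overlapped, and the log2 fold change was -0.28 (SE 0.180, edgeR adjusted P = 0.362) in Δcre1-43 and -0.26 (SE 0.180, adjusted P = 0.403) in Δcre1-91. Protein 365182, of the OPT superfamily, had at most 2.2 counts in any library, which is under the limit of 3 counts, so no fold change is given.

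Proteins 360169 and 233439 were the most alike of these genes in structure. Counted from the 5′ end, their coding exons 2 to 6 had the same lengths of 78, 65, 647, 70 and 216 bases, 1076 bases in all, and no other of the 14242 models held this run. The next exon of 233439, of 982 bases, was as long as exons 7 and 8 of 360169 together (634 and 348 bases). No other pair among the 6 genes shared more than 1 exon length in a run. The ratio of the counts of 360169 to those of 233439 was 0.394, 0.31 and 0.346 in the wild-type libraries, 0.199 and 0.178 in Δcre1-43, and 0.197 and 0.207 in Δcre1-91. The ratio was lower in every mutant library than in any wild-type library, while the level of 233439 alone overlapped between groups. Since 360169 was listed for being lower in these libraries and 233439 was not listed, a lower ratio follows from that choice. It is not independent evidence, and other gene pairs were not compared. Whether tags could map to both genes was not tested; the counts of 360169 were not whole numbers in 2 of the 7 libraries.

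**Figure D4:**
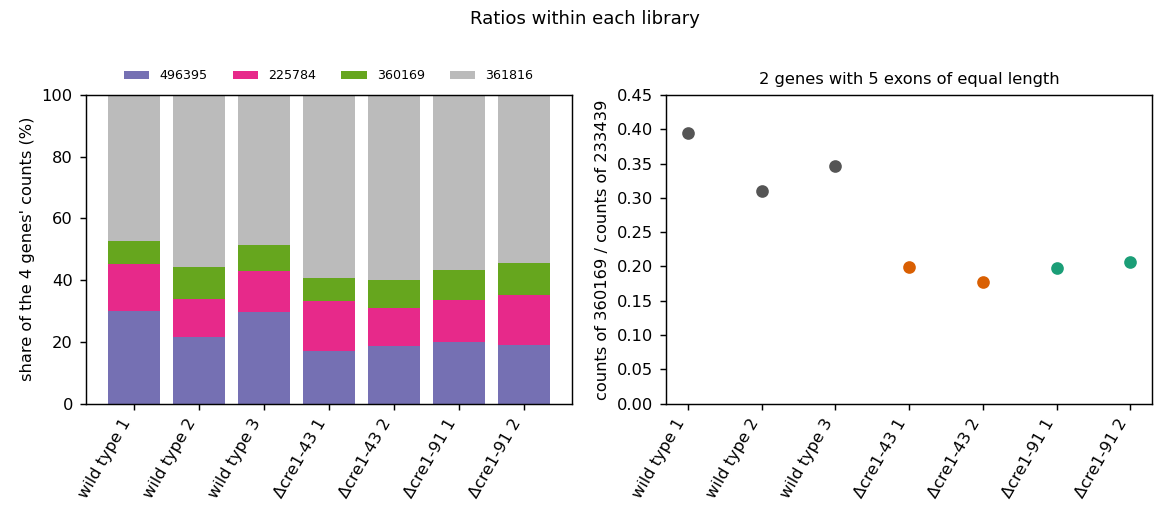
Ratios taken within each library. Stacked bars (left, % of the 4 genes' counts, axis from 0 to 100) show each listed gene's share, and points (right, linear axis from 0) the counts of 360169 divided by those of 233439. The share of 496395 is 21.6% to 30.1% in wild type and 17.1% to 20% in the mutants, and the ratio is 0.31 to 0.394 in wild type and 0.178 to 0.207 in the mutants.

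Gene models overlap in this annotation, and whether strand was used in counting is not given in the sources used here. Protein 496395 overlapped no other model. The overhang of 360169 was covered over all of its 400 bases by protein 360116 on the opposite strand, a model with U-box and WD40 annotations, so tags there could belong to either gene. Protein 360116 stood at 62.8 ± 5.03 scaled CPM (SD, n = 3) in wild type, with a log2 fold change of -0.26 (edgeR adjusted P = 0.363) in Δcre1-43 and -0.19 (adjusted P = 0.529) in Δcre1-91. Protein 361816 overlapped protein 517622 over 89 bases of its overhang on the same strand, and 517622 changed by -0.13 and -0.27 (adjusted P = 0.864 and 0.57). Protein 225784 overlapped protein 225791 by 154 bases at its 5′ end, and 225791 had at most 1 count in any library.

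None of the models next to the 4 genes was called in either mutant. Over all models, 2.16% and 3.35% were called lower in Δcre1-43 and Δcre1-91, and 4.82% and 4.97% higher. Beside 496395, protein 364310, annotated as kish, a small protein known from the secretory pathway, changed by 0.34 in Δcre1-43 and -0.42 in Δcre1-91 in log2 terms (edgeR adjusted P = 0.179 and 0.101), and protein 477339 by -0.41 and -0.06 (adjusted P = 0.192 and 0.954). On the other side of 225784, protein 470923 changed by -0.08 and -0.23 (adjusted P = 0.959 and 0.666). Protein 360168 began the flank of 360169 at a gap of only 37 bases and had 3 to 18 counts per library, with values of 1.68 and 1.00 (adjusted P = 0.137 and 0.455). Protein 126073, a ubiquitin-like model beside 361816, was at 0.46 and 0.57 (adjusted P = 0.0554 and 0.0157), under the fold limit. With so few flanking models, the absence of calls is near the shares over all models and shows nothing particular to the 4 genes. The 4 genes themselves were listed for being lower.

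Other genes of peptide and amino acid use were taken from lists. Protein 176106, the only PTR2 family gene in the annotations used, which the study had also listed among its lower transporters, stood at 566, 502 and 514 scaled CPM in wild type, 289 and 231 in Δcre1-43, and 255 and 261 in Δcre1-91. The groups did not overlap, and the log2 fold change was -1.02 (SE 0.155, edgeR adjusted P = 0.00013) and -1.03 (SE 0.155, adjusted P = 9.21e-05). Both calls sat at the fold limit and were lost under upper-quartile scaling (-0.99 in each mutant) or without wild-type replicate 1 (-0.97 and -0.98). The call in Δcre1-43 was also lost without Δcre1-43 replicate 2 (-0.88), with scaling by library size (-0.98) and with a filter on low counts (-1.0). Among 5 amino acid permeases, which import free amino acids, 1 was called lower in each mutant and 0 were called higher, where 2.16% and 3.35% of all models were called lower and 4.82% and 4.97% higher. In Δcre1-43, 2 were called lower without Δcre1-43 replicate 2 or with no fold limit, and 1 was called higher with limma voom. The permease called lower was protein 530563, also a listed transporter, with 193, 151 and 119 counts in wild type, 15 and 36 in Δcre1-43, and 15.5 and 12 in Δcre1-91, at a log2 fold change of -2.13 (SE 0.335, edgeR adjusted P = 0.000181) and -3.02 (SE 0.366, adjusted P = 7.66e-06).

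Peptidases of families that are often secreted were taken from the annotations and not from a list of changed genes. The families were still chosen with earlier results of these data known, and the annotations used are not complete. Of 17, 5 were called lower and 1 higher in Δcre1-43, and 6 lower and 1 higher in Δcre1-91, where 2.16% and 3.35% of all models were called lower and 4.82% and 4.97% higher. The same 5 were lower in both mutants. They included protein 279218, a metallopeptidase of family M43 (log2 fold changes of -2.30 and -4.36), protein 163961, of the aminopeptidase family M28 (-2.35 and -2.77), and protein 358430, a sedolisin of family S53 (-2.40 and -1.99). Protein 358430 fell from 222 ± 20.6 scaled CPM (SD, n = 3) in wild type to 42.1 ± 0.812 (SD, n = 2) and 55.7 ± 0.345 (SD, n = 2). The 1 peptidase that rose, singled out after its values were seen, was protein 117152, also of family M43, at 2.01 and 2.04. The median log2 fold change of the 17 was -0.59 in Δcre1-43 and -0.61 in Δcre1-91, or -0.36 and -0.67 without protein 363733, which had at most 4 counts in any library, against 0 over all models.

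In the wider set of transporters that the study listed as lower, beside the oligopeptide transporters, 20 of 25 were called lower in Δcre1-43 and 18 of 25 in Δcre1-91, 16 of them in both, where 2.16%, 3.35% and 1.52% of all models were. These 25 include 176106 and 530563 and were chosen by the study on these libraries, so the counts are not independent evidence. Ranked by the larger of their changes in the 2 mutants, the first 3 of those called in both were protein 443129, a phosphate transporter (-5.73 and -5.62), and proteins 500507 (-2.98 and -5.59) and 495582 (-2.20 and -3.60), both of the major facilitator superfamily. The log2 fold changes of the 4 oligopeptide transporters, -1.76 to -0.84, were all smaller in size than these. Of 25 other transporters listed as higher, 21 were called higher in Δcre1-43 and 18 in Δcre1-91, 17 of them in both, where 4.82%, 4.97% and 3.19% of all models were. The study chose this list on these libraries too, so its direction was fixed by the choice.

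Genes whose levels followed each listed gene most closely over the 7 libraries were ranked among 8856 models with at least 10 counts in each library. The measure was the root mean square difference of log2(scaled CPM + 1), each gene centred on its own mean. The nearest to 496395 were proteins 443946 and 430412, at 0.199 and 0.203. The nearest to 225784 were proteins 493218 and 496199, at 0.11 and 0.144. For 360169 they were proteins 348367 and 440087, at 0.062 and 0.091, and for 361816 proteins 502072 and 365454, at 0.093 and 0.096. None of these 8 had a name in the annotations used, and none was another oligopeptide transporter. Between the 4 genes themselves the differences were 0.185 to 0.414, the smallest being that of 360169 and 361816. The PTR2 gene 176106 was at 0.158, 0.165 and 0.169 from 225784, 360169 and 361816, nearer to each of them than any of the other listed genes was, and at 0.414 from 496395. The unlisted gene 233439 was at 0.411 to 0.783 from the 4. The 4 genes and 176106 were all listed as lower in these same libraries, and 233439 was not. That 176106 was near and 233439 far thus follows at least in part from that choice and is not independent evidence. The 7 points are few and share libraries and depth, so these values are a description.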

How the data were processed

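The members and all gene lists were chosen with earlier results of these data known. Per the study's methods and the submitters' processing notes, the authors trimmed reads with bbduk, mapped them with STAR 2.6.1a to the C. cinerea AmutBmut pab1-1 v1.0 assembly, and assigned tags with featureCounts to coding exons extended by 400 bases at the 3′ end. They used edgeR 3.34.0 and limma 3.48.3. The table deposited by the authors holds estimated counts for 14242 gene models, of which 803 had none in any library; 20.3% of values were not whole, and how fractions arose is not given in the sources used here. The deposited CPM signal table equals those counts over library sizes scaled by the trimmed mean of M values (TMM), to a relative difference of 0.

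Counts were rounded and fitted over all 7 libraries with edgeR 4.0.16 (R 4.3.3; TMM, quasi-likelihood F-test, Benjamini-Hochberg over 14242 models). Calls had adjusted P ≤ 0.05 and differed at least 2-fold; the test was planned for raw counts. limma 3.58.1 and DESeq2 1.42.0 were alternatives, and the procedure was tested on simulated data. Named were the 4 members, the other OPT and PTR2 genes, cre1, the nearest model on each side, the 2 genes of nearest pattern, and up to 3 genes per list with the largest change among those called in both mutants. P values measure the spread between libraries, which may be technical, and limits from low counts cover counting error only. No sequences of this strain were used here.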

Additional observations from a re-analysis of the deposited data

How the results depend on the processing

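Protein 496395 was called in both mutants under all 19 alternatives, and no listed gene changed direction against the wild type. The number of listed genes called was 2 to 3 in Δcre1-43 and 2 to 4 in Δcre1-91 when 1 library was left out, and it was 2 in Δcre1-91 without replicate 2 of that mutant. Across the other alternatives it was 2 to 4 and 3 to 4. For 225784 in Δcre1-43, the value was -1.03 with limma voom (adjusted P = 0.052), -0.99 with scaling by library size and -1.0 with the upper quartile, all no longer called, and -1.31 to -0.79 with 1 library left out. In Δcre1-91 it was -1.32 to -0.96. For 360169 in Δcre1-91 it was -1.0 with the upper quartile and -1.21 to -0.91 with 1 library left out, and for 361816 it was -1.37 to -0.93. For 361816 in Δcre1-43 (-0.84), dropping the fold limit made it a call. The cause of these changes was not tested. The difference between the mutants changed sign for 225784 (-0.15 to 0.37 with 1 library left out), 360169 (-0.27 to 0.03) and 496395 (-0.16 to 0.30). With a pseudocount of 0.25, 4 of the 8 genes of nearest pattern were shared.

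Same-numbered libraries correlated at -0.249 to 0.157 in their deviations from the group mean. With 2 libraries per mutant these deviations mirror each other, so the value between the mutants (-0.249) is the same for both replicate numbers. Whether replicate numbers pair the samples cannot be decided from this. With replicate number as a block, 3 and 4 listed genes were called, and 879 and 1093 models instead of 993 and 1185. Settings for genes outside the 4 were added after seeing the data. There cre1 turned to 0.03 in Δcre1-43 with the replicate block and ranged from -0.25 to 0.02 with 1 library left out. Likewise 470923 ranged from -0.25 to 0.27 in Δcre1-43 and -0.39 to 0.13 in Δcre1-91, 477339 from -0.14 to 0.04 in Δcre1-91, and 517622 from -0.42 to 0.11 in Δcre1-43, none of them called. Between the mutants, 35 models were called by edgeR, 0 by limma voom and 72 by DESeq2, and 0 to 106 over all alternatives. Scaling by library size moved the share of higher calls in Δcre1-91 from 59.7% to 50.2%, and shifted the median difference between the mutants by 0.12 on the log2 scale. Thinning to the smallest library left 3 and 4 listed genes called. Depth limits 365182, 225791 and 360168.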
